A study of Rattus norvegicus with 12 samples.

Results

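Regions that carried acetylation of lysine 5 of histone H4 (H4K5ac), without H3K23ac or H3K27ac, were described in primary rat vascular smooth muscle cells, the contractile cells of the arterial wall. The peaks of 12 CUT&Tag lists were merged where they shared at least 1 bp. Of 23333 merged regions 1834 had H4K5ac, and 493 of these (26.9%) had it in at least 1 list while no list of an H3 mark had a peak there. A further 69 were left out because both H4K5ac libraries of the condition labelled SIANK and neither of the condition labelled NC had them, which gave 424 H4K5ac-alone regions. They were chosen by the presence of peaks, so the counts of regions by mark and condition are descriptions without a test. Each of the 3 marks had 2 NC and 2 SIANK libraries. The labels do not spell out SIANK or NC further, and give no strain, age, time or agent.

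Histone acetylation neutralises the charge of lysines in the histone tails. H4K5ac is placed on newly made histone H4 by the enzyme HAT1 before the histone is assembled into chromatin, and in chromatin it lies at active promoters and enhancers. H3K27ac, written by p300 and CBP, is the usual mark of active enhancers and promoters, and H3K23ac is a further acetylation of the H3 tail.

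CUT&Tag tethers a transposase to an antibody on the mark, so that the DNA beside the mark is cut and tagged. The lists give the position and length of each peak and no read count, so the depth behind each list is unknown, and a region without a peak is a region below an unknown threshold. A smaller number of marked cells and a weaker mark per cell cannot be told apart. Nothing in the labels says that replicates came from separate cultures or animals, so the permutation tests over libraries measure a spread that may be technical. The peaks were not on the assembly of the gene table at hand (2696 of them lay beyond its last gene on their chromosome, as did 10 of the H4K5ac-alone regions). Regions are therefore given by position on a build that is not given in the sources used here, with no gene, exon or sequence, and the labelled cell type could not be checked against its marker genes.

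H4K5ac-alone regions were short and few. They summed to 0.205 Mb, against 1.03 Mb for all H4K5ac regions, and had a median length of 402.5 bp (281 to 2083 bp). No region held more than 1 peak of a library. In NC libraries 1 and 2, 23 of 100 H4K5ac peaks (23%) and 81 of 371 (21.8%) lay in these regions. In SIANK libraries 1 and 2 the numbers were 55 of 468 (11.8%) and 374 of 1711 (21.9%). The low value of SIANK library 1 was set by the exclusion of SIANK-only regions. With the 69 excluded regions put back, its share was 26.5%, that of SIANK library 2 was 25.9%, and the NC shares were the same as before. The exact (Clopper-Pearson) 95% intervals, which cover counting error only, were 15.2 to 32.5 and 17.7 to 26.4 for the NC libraries and then 22.6 to 30.7 and 23.8 to 28.0 for the SIANK libraries. With the SIANK-only regions counted, all 4 intervals overlapped.

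Most H4K5ac-alone regions were seen in a single library. Of the 424, 363 (85.6%) had a peak in 1 library, 25 in 2, 24 in 3 and 12 in all 4. SIANK library 2, the longest list, was the only source of 316 regions (74.5%), a pattern found at 64.0% of all 1834 H4K5ac regions. With the 69 excluded regions back in the denominator the share was 64.1%. NC library 2 alone gave 24 regions, SIANK library 1 alone 18 and NC library 1 alone 5. At least 2 libraries shared 61 regions (14.4%), against 29.0% of all H4K5ac regions, but the SIANK-only pairs had been removed from the former by the rule. For 3 or 4 libraries the exclusion leaves the count of 36 regions unchanged but lowers the denominator (8.49% of 424, interval 6.02 to 11.6). The share was 10.5% of all H4K5ac regions and 11.7% (10.04 to 13.6) of the 1341 H4K5ac regions with another mark. Both of these classes keep their SIANK-only regions. All 4 libraries shared 12 regions (2.83%), against 3.71% of all H4K5ac regions. With the SIANK-only regions in the denominator here too, 7.30% of 493 were in 3 or 4 libraries (interval 5.17 to 9.97). The share in all 4 was then 2.43%. Both NC libraries without either SIANK library gave 1 region, a pattern seen at 0.109% of all H4K5ac regions.

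**Figure D1:**
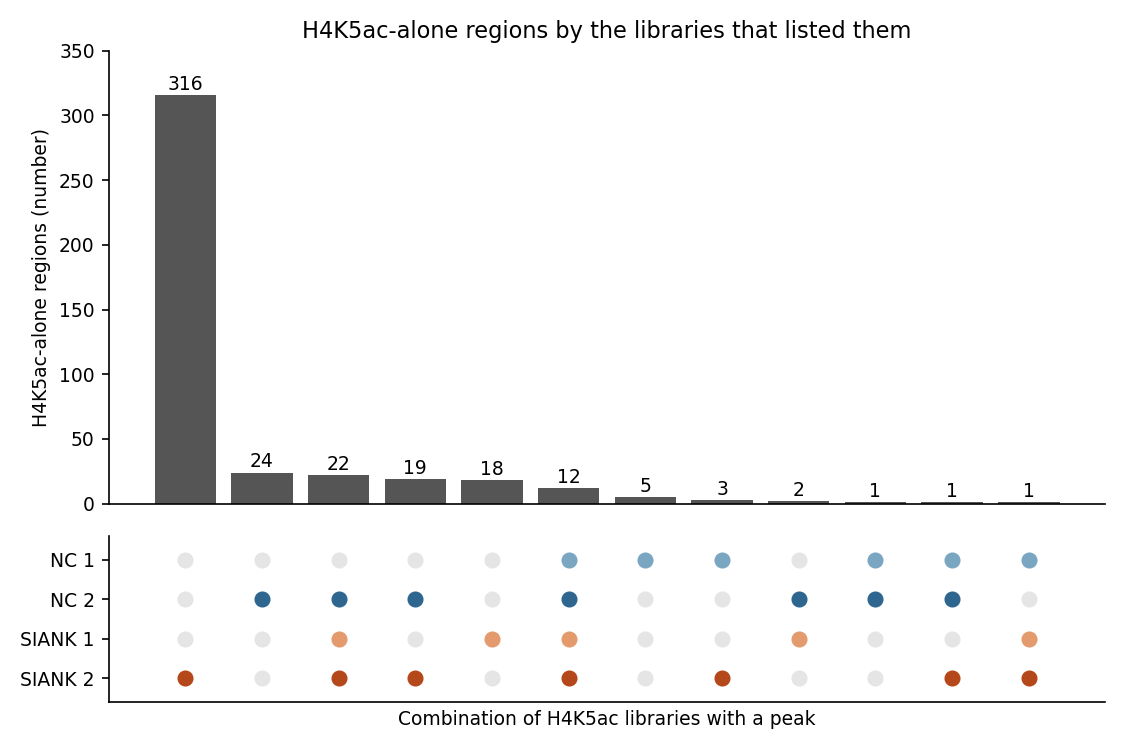
Number of H4K5ac-alone regions (bars, from 0) for each combination of H4K5ac libraries that listed a peak (coloured dots). SIANK library 2 alone accounts for 316 of 424 regions, and 12 regions were listed by all 4 libraries.

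Seen from each list, the percent of peaks found again in another library was lower in H4K5ac-alone regions than beside another mark. Of the 23 such peaks of NC library 1, 18 (78.3%) lay in a region of at least 1 further H4K5ac library, against 98.7% of its peaks in regions with another mark. For NC library 2 the percentages were 70.4 and 86.2. For SIANK libraries 1 and 2 they were 67.3 against 88.1 and 15.5 against 32.2, and with the SIANK-only regions put back the alone percentages were 85.5 and 28.7. The order was the same in all 4 libraries, also after that step. These values describe the lists that chose the regions, and no test was made of them.

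The 36 regions in 3 or 4 libraries are the part of the class with the most support among the lists. In the 3-library group, 22 of 24 regions (91.7%) lacked only NC library 1, the shortest list, as did 88 of the 101 3-library H4K5ac regions with another mark (87.1%). Ranked by the lowest within-list percentile of peak length, the first of the 36 lay on chromosome 11 from 9763465 to 9764648. Its peaks were 494 and 579 bp long in NC libraries 1 and 2 and 716 and 1184 bp in SIANK libraries 1 and 2, so both SIANK peaks were longer than both NC peaks. The nearest region with another mark was 30.2 kb away and carried all 3 marks.

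Chromosome 2 held 3 of the 12 regions found in all 4 libraries. The region from 165139922 to 165140658 held NC peaks measuring 688 and 605 bp and SIANK peaks measuring 643 and 556 bp, with a core of 511 bp common to all 4 peaks. Here the groups overlapped and the NC library 1 peak was the longest. It stood 248 kb from any other mark and 7221 kb from the next H4K5ac-alone region. The region from 224898064 to 224899183 had a short peak of 445 bp in NC library 1 and peaks of 1088, 1108 and 1120 bp in NC library 2 and SIANK libraries 1 and 2. The peak of NC library 2 was close in length to the SIANK peaks, though both SIANK peaks were longer than both NC peaks. The third, from 186142679 to 186143522, measured 365 and 528 bp in the NC lists, against 509 and 844 bp in the SIANK lists, and its nearest other mark, at 299.9 kb, was a single H3K27ac peak.

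On chromosome 8 from 118269050 to 118269882 the NC peaks measured 740 and 457 bp, the SIANK peaks 739 and 833 bp. On chromosome 20 from 13111427 to 13113014, the longest of the all-library regions, the NC peaks measured 356 and 609 bp, the SIANK peaks 1588 and 1053 bp. The last has SIANK above NC without overlap, and the former does not.

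The leading 3-library regions differed in which list was missing. On chromosome 15 from 38181168 to 38181945, peaks of 448, 666 and 621 bp were listed by NC libraries 1 and 2 and SIANK library 2, so SIANK library 1 was the missing list. On chromosome 9 from 87984382 to 87985131, NC library 2 and SIANK libraries 1 and 2 had 491, 650 and 625 bp. On chromosome 1 from 124695793 to 124696882 they had 457, 797 and 766 bp, with only 164 bp common to the 3. These peaks were offset, so the merged region of 1090 bp was longer than any of them.

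Further 3-library regions lay on chromosome 15 from 70391319 to 70392010 (482, 470 and 692 bp in NC library 2 and SIANK libraries 1 and 2), chromosome 16 from 74758474 to 74759504 (423, 784 and 1016 bp) and chromosome 5 from 70091407 to 70092134 (423, 620 and 463 bp). On chromosome 13 from 83242035 to 83242766 the lists were NC library 1 and both SIANK libraries, with 369, 417 and 732 bp. NC peaks were the shortest of the 3 at 3 of these 4 regions. The longest H4K5ac-alone region, on chromosome 19 from 20261895 to 20263977, joined separate peaks of 531 and 381 bp under a peak of 2083 bp in SIANK library 2. No base of it was common to all 3 lists, and it was singled out after its values were seen.

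**Figure D2:**
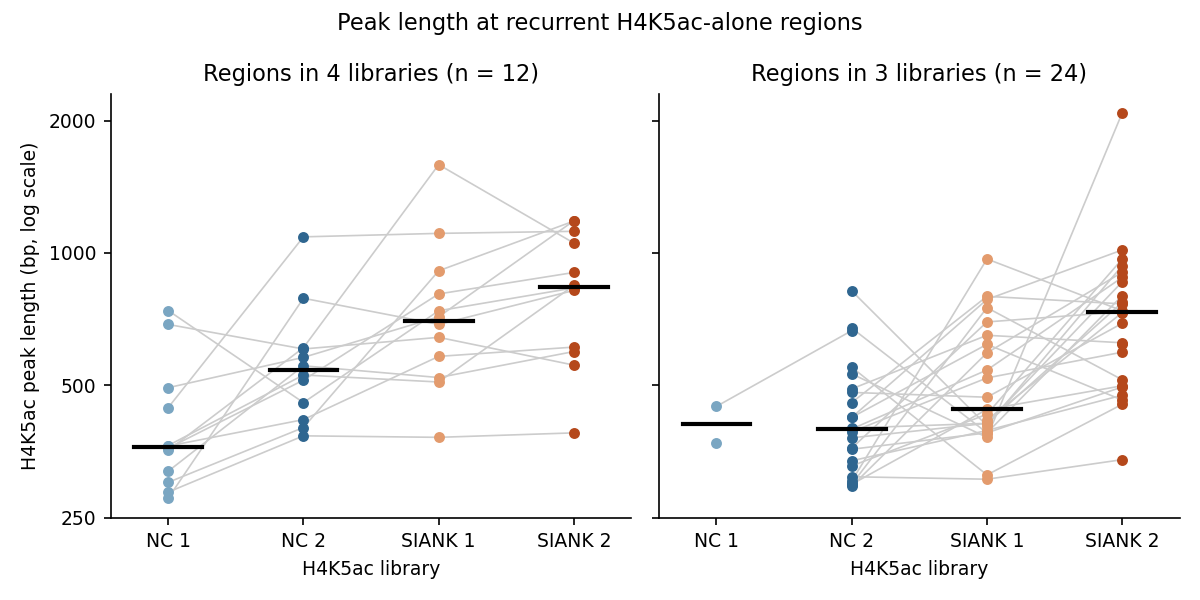
H4K5ac peak length in bp (log scale) in each library at the 12 H4K5ac-alone regions found in all 4 libraries and the 24 found in 3. Points are peaks, grey lines join the peaks of a region in neighbouring libraries, and black bars are medians, which go from 362 bp in NC library 1 to 838.5 bp in SIANK library 2 at the 12 regions.

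Across the 12 regions of all 4 libraries both SIANK libraries had a higher median peak length than both NC libraries. Lengths were 277 to 740 bp in NC library 1 (median 362) and 384 to 1088 bp in NC library 2 (median 541). They were 381 to 1588 bp in SIANK library 1 (median 702) and 390 to 1184 bp in SIANK library 2 (median 838.5). NC library 1 had the shortest peak at 10 of the 12 regions and SIANK library 2 the longest at 10, and SIANK lay above NC without overlap at 6. The log2 ratio of SIANK to NC geometric means was 0.69, with 11 of 12 regions above 0, but the exact two-sided permutation test over libraries gave p = 0.333, the smallest that 2 libraries against 2 allow. At the 56 all-library regions with another mark the log2 ratio was 0.63 (p = 0.333 in the same exact permutation test). The order of the 4 lists by length at these regions is also their order by number of peaks.

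Peaks seen again had a higher median length than peaks seen once in 3 of the 4 libraries. In SIANK library 2, peaks in H4K5ac-alone regions had a median of 395.5 bp (294 to 1221) where no other library had the region. The median was 451 bp (296 to 1534) in the 22 regions shared with 1 further library, 733.5 bp (339 to 2083) in the 24 of 3 libraries and 838.5 bp (390 to 1184) in the 12 of all 4. The ranges overlapped throughout. Unshared and shared peaks had medians of 325 and 426 bp in NC library 2 and of 361 and 542 bp in SIANK library 1. In NC library 1 the order was the other way, 427 bp unshared and 362 bp shared, over only 5 and 18 peaks.

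Pairs of libraries supported 25 regions, and 19 of these joined NC library 2 and SIANK library 2. The rule had removed the 69 regions shared by SIANK libraries 1 and 2 only. With these put back, the 19 were part of 94 regions of 2 libraries. Among the H4K5ac regions with another mark, NC library 2 and SIANK library 2 made up 92 of the 245 in 2 libraries. The leading one, on chromosome 2 from 183952538 to 183954071, joined 812 and 1534 bp peaks, at percentiles 91.9 and 99.01 of their lists. It was followed by chromosome 7 from 76435326 to 76436255, with 833 and 930 bp, and chromosome 12 from 51756245 to 51757057, with 644 and 813 bp. The SIANK library 2 peak was the longer at these places and at 11 of the 19 in all. At chromosome 13 from 83971760 to 83972562 the NC peak was the longer (719 against 624 bp), and this region lay 1.95 kb from an H3K23ac peak region. The region on chromosome 17 from 63695901 to 63696942 paired NC library 1 (568 bp) with SIANK library 2 (1042 bp), 216 kb from the nearest other mark. The region of both NC libraries and neither SIANK library was on chromosome X from 361696 to 362009, with 302 and 313 bp, and no other mark within 531392 bp.

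Some single-library regions were as long as the recurrent ones. The top-ranked one was the only one of the leading 8 from an NC list, a 917 bp peak of NC library 1 on chromosome 14 from 94553197 to 94554113, at percentile 99 of its list. The other 7 were from SIANK library 2, as were 87.1% of all single-library regions. The longest of the 7 were on chromosome 3 from 113144435 to 113145655 (1221 bp), chromosome 14 from 6615510 to 6616587 (1078 bp) and chromosome 11 from 68936619 to 68937653 (1035 bp). In all, 4 of the 363 single-library regions reached 1000 bp, against 8 of the 36 in 3 or 4 libraries, though merging several peaks lengthens a region by construction.

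Within each H4K5ac list, peaks in H4K5ac-alone regions had a lower median length than peaks beside another mark. The medians were 364 against 412 bp in NC library 1, 398 against 439 bp in NC library 2, 433 against 453 bp in SIANK library 1 and 409.5 against 482.5 bp in SIANK library 2. All 4 libraries had the alone peaks shorter. Length is not free of the rule, since a longer peak has more bases that can meet an H3 peak and leave the class. The share of the difference that this makes was not tested. The mean log2 ratio was −0.16 (SE 0.04, n = 4), and an exact two-sided sign-flip permutation test over the 4 libraries gave p = 0.125, the smallest it can give, so the threshold of 0.05 was out of reach. The median alone peak stood at percentile 41.0, 40.6, 46.6 and 36.6 of its own list in NC libraries 1 and 2 and SIANK libraries 1 and 2. Without SIANK library 1 of each mark the log2 ratio was 0.03, because the exclusion of SIANK-only regions then removes every region of SIANK library 2 that NC lacks. With those regions kept in and the same library left out it was −0.16.

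**Figure D3:**
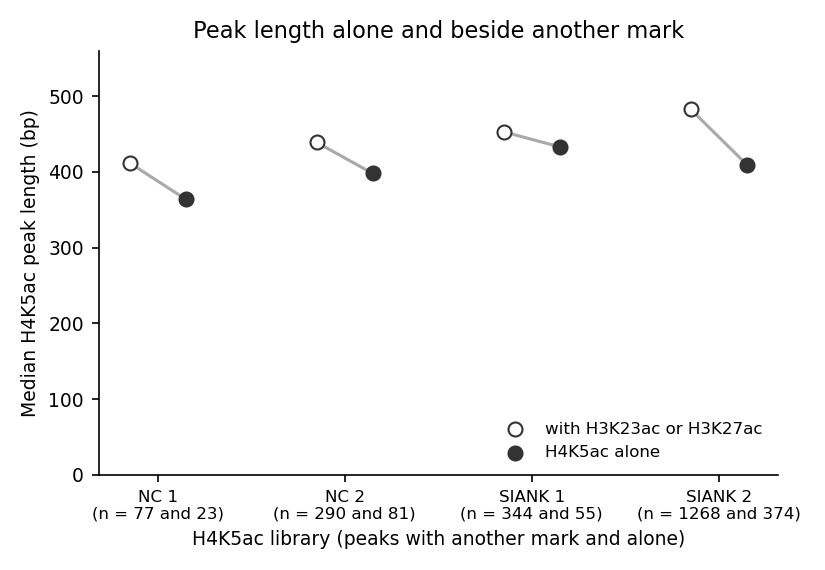
Median H4K5ac peak length (bp, axis from 0) in each library for peaks with H3K23ac or H3K27ac (open) and peaks in H4K5ac-alone regions (filled), with the number of peaks of each under the library. The filled point is the lower in all 4 libraries, from 364 against 412 bp in NC library 1 to 409.5 against 482.5 bp in SIANK library 2.

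Between conditions, both SIANK medians of H4K5ac-alone peak length (433 and 409.5 bp) lay above both NC medians (364 and 398 bp). The log2 ratio of SIANK to NC was 0.15 (SE 0.08, 2 libraries each). The rule had removed SIANK peaks only. With the SIANK-only regions put back, the SIANK medians were 442 and 428 bp and the log2 ratio was 0.19. The exact two-sided permutation test gave p = 0.333 for the reported ratio, again the smallest possible with these numbers.

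H4K5ac-alone regions mostly lay over 10 kb from the other marks. The nearest region with H3K23ac or H3K27ac lay at a median of 30.6 kb, with quartiles of 13.05 and 63.2 kb. Only 14 regions (3.30%) had another mark within 1 kb, 46 (10.8%) within 5 kb and 85 (20.05%) within 10 kb. Beyond 100 kb there were 70 (16.5%), and beyond 500 kb there were 8. H3K23ac was at a median of 33.7 kb and H3K27ac at 36.1 kb. The median was 30.6 kb for regions of 1 library, 37.0 kb for 2, 20.7 kb for 3 and 52.1 kb for 4, with ranges that overlapped widely, so recurrence and distance showed no common order.

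At the edge of the rule the nearest regions were short single-library peaks. The closest, 317 bp of SIANK library 2 on chromosome 6 from 26314820 to 26315136, lay 29 bp from an H3K23ac region. Next were a 355 bp peak on chromosome 19 from 17097298 to 17097652, 59 bp from a region with both H3 marks, and a 297 bp peak on chromosome 1 from 266358078 to 266358374, at 69 bp. Just outside the rule, an H4K5ac region of 294 bp on chromosome 13 from 51317155 to 51317448 shared 11 bp with another mark. Such slight contacts were rare. Merged by themselves, 1357 H4K5ac regions met another mark, of which 76.3% lay wholly under its peaks and 45 were covered for less than 50% of their length.

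At the other end were regions with no other mark over long stretches. The farthest, on chromosome 20 from 40202535 to 40203280, was a 746 bp peak of SIANK library 2 at 879 kb from the nearest region with another mark. A 468 bp peak on chromosome 12 from 3332173 to 3332640 stood at 705 kb, and a 295 bp peak on chromosome 2 from 126458608 to 126458902 at 658 kb. Each of the 5 farthest regions was listed by SIANK library 2 only, as were 4 of the 5 nearest and 74.5% of all H4K5ac-alone regions.

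The region next to an H4K5ac-alone region was usually of the commonest kind. It carried H3K23ac and H3K27ac without H4K5ac in 236 cases (55.7%), a kind that makes up 61.0% of all 22840 regions with an H3 mark. It carried H3K23ac alone in 101 cases (23.8% against 25.7%) and H3K27ac alone in 37 (8.73% against 7.504%). All 3 marks were found there in 43 cases, 10.1% against 5.18%. The neighbour had H3K23ac in all 4 libraries in 143 cases (33.7%), against 32.4% of all regions with an H3 mark.

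Measured to a landmark common to the 3 marks, H4K5ac-alone regions lay farther out than regions of either H3 mark alone. The landmark was the nearest of the 15107 regions with both H3K23ac and H3K27ac, and the same rule gave 1699 regions of H3K27ac alone and 5511 of H3K23ac alone. For H4K5ac-alone peaks the median distance was 67.1 and 35.6 kb in NC libraries 1 and 2 and 44.9 and 38.7 kb in SIANK libraries 1 and 2. For H3K27ac-alone peaks it was 20.1, 10.5, 21.9 and 9.89 kb in the same order, and for H3K23ac-alone peaks 22.8, 12.5, 11.2 and 13.9 kb. The lowest H4K5ac value was above the highest value of the others, so the groups did not overlap.

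The means were 46.6 ± 14.3 kb for H4K5ac, 15.6 ± 6.31 kb for H3K27ac and 15.1 ± 5.24 kb for H3K23ac (SD, n = 4 libraries each). The log2 difference was 1.63 (SE 0.37) from H3K27ac and 1.64 (SE 0.30) from H3K23ac, a 3.09-fold and a 3.11-fold greater distance. Exact two-sided permutation of the mark labels gave p = 0.0286 for each, the smallest that 4 libraries against 4 allow, and 0.0286 after Benjamini-Hochberg adjustment over the 4 tests between marks. Libraries of a mark share regions, and the landmark came from the H3 lists, which also gave both H3 classes but not the H4K5ac class. With each class held to its 424 longest regions, an alternative chosen after seeing the data, the log2 differences were 1.94 and 1.75 with adjusted p = 0.0571 in the same exact permutation test. The differences were smaller when peaks were merged within 1000 bp (1.16 and 1.15) and with the upper 50% of each list by length (1.08 and 1.25). Under both of these they still passed the threshold.

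**Figure D4:**
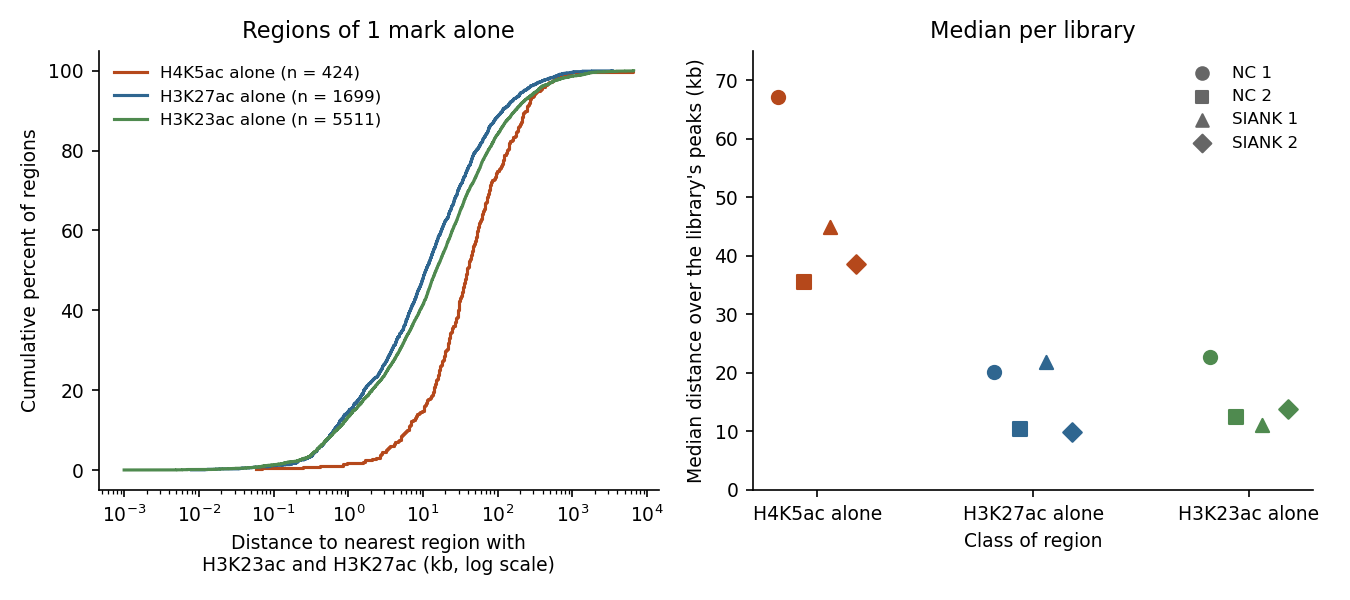
Left, cumulative percent of regions of 1 mark alone by distance in kb (log scale) to the nearest region with both H3K23ac and H3K27ac. Right, the median of that distance over the peaks of each library (symbols), which is 35.6 to 67.1 kb for H4K5ac alone and at most 22.8 kb for the other classes.

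The surroundings held fewer H3-marked regions than those of H4K5ac regions with another mark. Within 100 kb of an H4K5ac-alone region there was a median of 2 regions with an H3 mark (quartiles 1 and 5), against 4 (2 and 8) around the 1341 others, not counting the region itself. By library, the median distance from a peak to the nearest further H3-marked region was 62.1 against 10.97 kb in NC library 1 and 30.2 against 12.4 kb in NC library 2. It was 34.3 against 14.2 kb in SIANK library 1 and 30.4 against 12.2 kb in SIANK library 2. The alone peaks had the greater distance in all 4 libraries. Both classes were separated by the same H3 peaks, so these values are a description with no test, and they were added after the other distances had been seen.

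Distances overlapped between the conditions. Medians to the nearest other mark were 62.1 and 30.3 kb in the NC libraries and 34.7 and 30.4 kb in the SIANK libraries (log2 ratio −0.42, SE 0.53, exact two-sided permutation p = 1). The groups overlapped, and without NC library 1, whose value rests on 23 peaks, the log2 ratio was 0.05. The rule had removed SIANK peaks only. With the SIANK-only regions put back and all libraries used, the log2 ratio was −0.52 (exact two-sided permutation p = 0.667).

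H4K5ac-alone regions were scattered singly over the genome. The next region of the class lay at a median of 1.42 Mb, and 259 regions (61.1%) had none within 1 Mb. Chained at up to 50 kb, 400 regions stood alone and 24 fell into 12 pairs, with no larger cluster. In the first of the pairs, on chromosome 1 from 7456061 to 7464316, peaks of 393 and 320 bp of SIANK library 2 were 7543 bp apart. A pair on chromosome 3 from 64322118 to 64323501 comprised 460 and 318 bp peaks with 606 bp between them, also from SIANK library 2. Further pairs were on chromosome 1 from 211621714 to 211636734, chromosome 5 from 8911302 to 8923898 and chromosome 8 from 59749260 to 59790163.

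In 8 of the 12 pairs both peaks came from a single list. SIANK library 2 was the only source of 74.5% of all H4K5ac-alone regions, so such pairs would be common from list size alone. Whether the count differs from that was not tested. The only pair made of NC peaks alone, on chromosome 14 from 94545493 to 94554113, held 427 and 917 bp peaks of NC library 1. The closest pair, on chromosome 17 from 29190465 to 29191340, was 80 bp apart, with 431 bp from SIANK library 1 and 365 bp from SIANK library 2. These 2 lists placed neighbouring peaks there that did not touch. Both pairs were singled out after their values were seen.

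By library, 8.70% and 1.23% of the alone peaks of NC libraries 1 and 2 and 7.27% and 5.08% of those of SIANK libraries 1 and 2 had another H4K5ac-alone region within 50 kb. For H3K27ac alone the percentages were 18.8 to 31.2 and for H3K23ac alone 47.7 to 50.5. The differences of −20.4 (SE 3.22) and −43.6 (SE 1.73) percentage points each had an exact permutation p of 0.0286, also after adjustment over the 4 tests. The classes differ in size, 424 regions against 1699 and 5511, and a denser class lies closer by number alone. With 424 regions of each mark the differences were −3.09 and −3.03 percentage points (adjusted exact permutation p = 0.267 and 0.543), which did not pass the threshold. The H3K27ac difference also lost its call within 10 kb (−7.21, adjusted exact permutation p = 0.0571) and with the upper 50% of each list by length (−8.21, adjusted exact permutation p = 0.0857).

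H4K5ac-alone regions lay on chromosomes 1 to 20 and X, and none on Y. Chromosome 1 had the most, 50 regions (11.8%), close to its 11.1% of all H3-marked regions. Chromosome 2 had 46 (10.8%), against 6.04% of H4K5ac regions with another mark and 6.82% of H3-marked regions, and chromosome 17 had 23 (5.42% against 3.65% and 3.15%). Chromosome 10 had 22 (5.19% against 6.11% and 8.38%) and chromosome 5 had 18 (4.25% against 7.01% and 6.77%). The 36 regions in 3 or 4 libraries were spread over 18 chromosomes, with 5 on each of chromosomes 1 and 2. These shares are descriptions, with no test, and were not set against chromosome length.

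**Figure D5:**
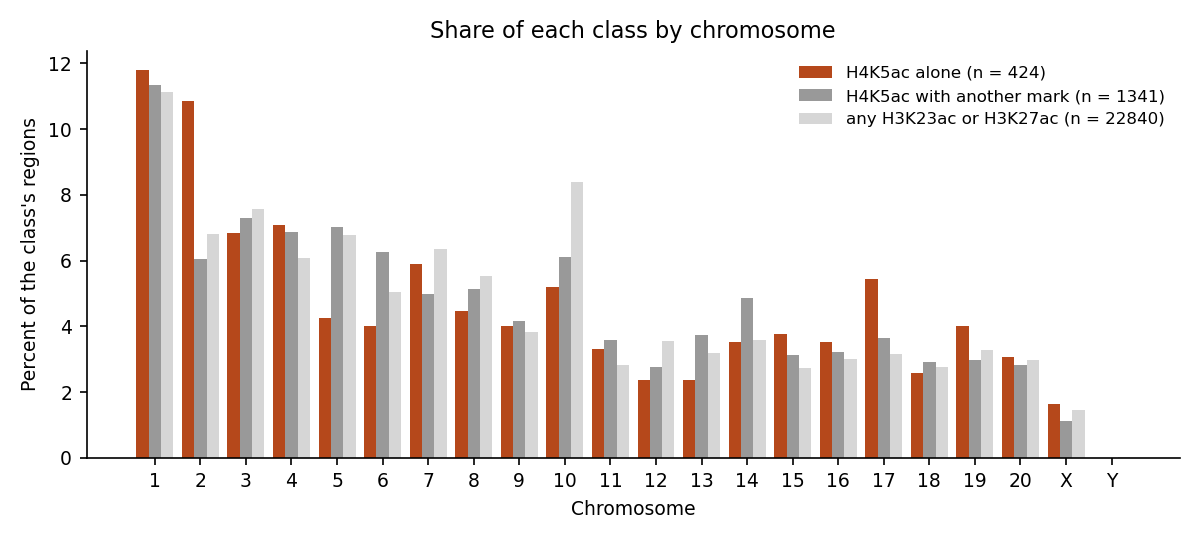
Percent of the regions of each class on each chromosome (bars from 0) for H4K5ac alone, H4K5ac with another mark, and all regions with H3K23ac or H3K27ac. Chromosome 2 holds 10.8% of the first class against 6.04% and 6.82% of the others, and chromosome 10 holds 5.19% against 6.11% and 8.38%.

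The number of H4K5ac-alone regions rested mainly on SIANK library 2. Without that library of each mark 109 regions were left, or 217 with SIANK-only regions kept in. Without SIANK library 1 of each mark the rule left 94 regions, since a region of SIANK library 2 without NC then counts as SIANK-only, whereas 499 were found with those regions kept in. Leaving out each H3K23ac or H3K27ac list in turn gave 424 to 478 regions, the highest without SIANK library 2 of H3K23ac.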

How the data were processed

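CUT&Tag peak lists of 12 libraries were used, 4 for each of 3 marks. The authors deposited 1 list per library, which per the file headers holds the position and the length of every peak, counted from 1. BWA and deepTools appear in the submitters' processing notes with no version. The peak caller, threshold, control and genome build were not given in the sources used here, and IgG libraries were not analysed here. Groups and replicate numbers came from the titles.

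Peaks were merged at 1 bp of overlap, and bedtools 2.31.1 gave the same 424 regions. On simulated lists 100% of 230 planted regions were recovered. Distances count the bases between regions. Tests were exact permutations over libraries with a threshold of 0.05. The regions and lists were chosen with earlier results of these data known. Named regions were those with the highest lowest within-list percentile of peak length (12 of 3 or 4 libraries, 8 of 2, 8 of 1), the 5 farthest from and 5 nearest to another mark, and the 5 largest clusters chained at 50 kb. Ties went by chromosome and start. The planned check of cell type markers was not run for want of an annotation on the peaks' build. Alternatives are given in the closing section. Scripts ran under Python 3.11.15 with numpy 2.4.6, pandas 2.3.3 and matplotlib 3.10.9.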

Additional observations from a re-analysis of the deposited data

How the results depend on the processing

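Among 141 alternative values, 94 left the direction and the call as reported, or the count or share near its reported value. The tests of length and distance within the H4K5ac lists could not reach the threshold under any alternative, so only their direction could change. With the upper 50% of each list by length, 36.0%, 36.6%, 18.7% and 32.1% of the H4K5ac peaks of NC libraries 1 and 2 and SIANK libraries 1 and 2 lay in H4K5ac-alone regions, and the clustering difference from H3K27ac was −8.21 percentage points, no longer past the threshold (adjusted exact permutation p = 0.0857). With SIANK-only regions kept in, the SIANK shares were 26.5% and 25.9%. The share of SIANK library 2 was 24.0% when another mark had to cover 50% of a region and 19.5% with no other mark within 5000 bp. Within 10 kb the clustering difference from H3K27ac was −7.21 percentage points and likewise lost its call (adjusted exact permutation p = 0.0571). That from H3K23ac was −20.6 within 10 kb and −22.2 with the upper 50% of each list, both still past the threshold. Merging within 1000 bp gave −12.7 from H3K27ac, also still past it. Both differences passed under a distance of 200 kb (−34.1 and −62.0). With equal classes, the log2 distances of 1.94 and 1.75 and the clustering differences of −3.09 and −3.03 did not pass.

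Leaving out 1 library of every mark in turn, the number of regions ranged from 94 to 429 (to 478 without SIANK library 2 of H3K23ac alone), and from 217 to 499 with SIANK-only regions kept in (added after seeing the data). The shares ranged from 24 to 25%, 22.1 to 26.7%, 7.48 to 11.8% and 3.57 to 22.3% in the order above. The log2 length ratio to other H4K5ac peaks ranged from −0.17 to 0.035 (−0.16 to −0.12 with those regions kept). SIANK against NC, log2 length ranged from 0.08 to 0.75 (0.12 to 0.25) and log2 distance from −0.65 to 0.052 (−1.02 to 0.038), above 0 without NC library 1. The log2 distance ranged from 1.38 to 2.09 (1.51, 1.59, 1.95 and 1.56 without NC 1, NC 2, SIANK 1 and SIANK 2) against H3K27ac and from 1.59 to 2.02 (1.61, 1.76, 1.52 and 2.15) against H3K23ac, and clustering from −25.0 to −13.2 and from −46.5 to −27.2 percentage points. With 3 libraries a mark the smallest p is 0.1, so these tests could not pass.

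With a replicate block the log2 ratios of length and distance were 0.15 and −0.42 (exact permutation p = 0.5 and 1). The smallest p of that exact permutation test with 2 pairs is 0.5, so neither could be called. Deviations of same-numbered libraries in presence at the 424 regions had r = −0.33. The rule chose those regions by presence, so this value cannot say whether libraries of the same number belong together. Over all 1834 H4K5ac regions r was −0.22. These too were chosen by the presence of a peak, and 64.0% were found in SIANK library 2 only, so this value cannot say it either. For log2 length at the 12 regions of all 4 libraries r was −0.04. The crossed pairing, added after seeing the data, also had 2 pairs and could not call either ratio. The lists hold no depth or score, so what a deeper library would add is unknown.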
